A study of Mus musculus with 12 samples.

Results

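Creb5, Pik3r1 and Dek are 3 of the 32289 features counted in single cells of the mouse superior mesenteric ganglion. They were chosen by the study's marker table for neuroblasts, which names all 3, so that a higher level in neuroblasts than in other cells is what selected them. That level is given below as a description with no test.

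CREB5 is a basic leucine zipper transcription factor of the ATF2 subfamily, which binds cAMP response elements (CRE) as a homodimer or together with JUN. PIK3R1 is the regulatory subunit p85alpha of class IA phosphoinositide 3-kinase (PI3K), which holds the catalytic subunit in check and recruits it to activated receptors, and PI3K signalling through AKT is known to protect MYCN protein from degradation in neuroblastoma. DEK is an abundant chromatin protein and histone chaperone that alters the topology of DNA and is known for high levels in proliferating cells.

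Droplet libraries (Chromium 3′ v1) were made from the dissociated ganglia of 12 mice of the strain 129+Ter/SvJcl. They came from 1 wild-type (WT) mouse of 3 weeks, 10 Th-MYCN+/- mice of 3 weeks and 1 Th-MYCN+/- mouse of 6 weeks, 1 library per mouse. Th-MYCN+/- mice are hemizygous for a transgene in which the rat Th promoter drives human MYCN in cells of the sympathetic lineage, where neuroblastoma then forms. The 6-week mouse was picked for a macroscopic tumor, and with 1 mouse each the WT and 6-week groups have no replicate error and entered no test.

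The deposited values are counts of unique molecular identifiers (UMIs), 1 for each captured RNA molecule. The WT library held 1147772 UMIs, the 6-week library 4824039, and the 3-week Th-MYCN+/- libraries between 1444554 and 6388766 with a median of 3000078.5. After empty droplets and poor barcodes were removed, 12022 cells remained, of which 618 came from the WT mouse, 945 from the 6-week mouse and between 522 and 1839 from each 3-week Th-MYCN+/- mouse. The median depth of a cell was 555.5 UMIs in the WT sample, 1664 at 6 weeks and between 697.5 and 2367 in the others. Levels are given as CPM, which scale a gene's UMIs to the total UMIs of the cells named. Means over 3-week Th-MYCN+/- mice carry the SD between mice and use mice with at least 10 cells of the class. Intervals are 95% intervals that cover counting error alone, and cells of 1 mouse are not replicates.

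The cells fell into 16 clusters, named from marker lists with the 3 genes and the transgene left out of the clustering. Of the cells, 3057 were named neuroblast-like, 2885 Schwann-like and 2750 ganglion-like. Smaller classes were endothelial-like (525 cells), fibroblast-like (141), myofibroblast-like (168), NKT-like (43) and macrophage-like (242). At a resolution of 1.0, an alternative, 193 cells were macrophage-like and 49 B cell-like, so that the class of 242 may hold B cells. The remaining 2211 cells were unnamed, and 2143 of them formed a cluster of shallow cells (median 494 UMIs) that met 1 of 14 neuroblast markers. Under log-normalized clustering, an alternative, a shallow cluster of 2088 cells (median 463 UMIs) met 8 of the 14 and was named neuroblast-like. The unnamed share was 1.62% in the WT mouse, 12.7% in the 6-week mouse and between 9.79% (mouse 2) and 34.7% (mouse 1) in the 3-week Th-MYCN+/- mice. No doublet caller was run, so that barcodes with RNA of 2 cell types are still in the counts. Of 11929 different barcodes, 92 occurred in 2 or more libraries, with at most 6 shared by a pair of libraries.

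Mouse 2 of the 3-week Th-MYCN+/- group stood apart. Of its 1839 cells, 82.2% were ganglion-like and 39 were neuroblast-like, with 29791 UMIs in these 39 cells. In the other 9 mice of this group, between 105 and 550 cells were neuroblast-like. The WT sample had 34 neuroblast-like cells with a median of 344 UMIs and 12637 UMIs together. Mean levels of the 3 genes over all neuroblast-like cells and relations across mice are therefore given with and without mouse 2. Means of single clusters and of the transgene include mouse 2 where it had at least 10 cells.

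Creb5 (ENSMUSG00000053007) lies on chromosome 6 of GRCm38 from 53287270 to 53700376 on the plus strand, a protein-coding gene of 413107 bases. Within it on the same strand lie the annotated records Gm25818 and Gm44080, of 164 and 2214 bases. In neuroblast-like cells of the 3-week Th-MYCN+/- mice, Creb5 had between 201 and 485 CPM with a median of 343. Mouse 2 was the lowest and mouse 7 the highest. In mouse 7, 1 cell held 85 of the 249 Creb5 UMIs (34.1%), so that its place as the highest rests on this cell. The mean was 348 ± 70.5 CPM (SD, n = 10), and 364 ± 51.1 (n = 9) without mouse 2.

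In ganglion-like cells, Creb5 had between 0 and 30.7 CPM with a median of 11.0, so that the 10 values lay below the lowest value of neuroblast-like cells. Schwann-like cells had 53.1 ± 17.9 CPM (n = 9), between 20.5 and 74.3. Fibroblast-like cells had 60.6 ± 58.8 CPM (n = 5), which does not differ from Schwann-like cells beyond the spread. Endothelial-like cells had 10.1 ± 12.6 CPM (n = 9), myofibroblast-like cells 13.1 ± 34.7 (n = 7) and macrophage-like cells 6.76 ± 17.0 (n = 9), and these classes do not differ from ganglion-like cells (12.1 ± 8.71, n = 10) beyond their spread. In order of level, Creb5 was therefore highest in neuroblast-like cells, next in the unnamed cells with 234 ± 81.1 CPM (n = 10), then in Schwann-like and fibroblast-like cells, and lowest in the rest. The values of unnamed and neuroblast-like cells overlapped, since unnamed cells reached 353 CPM.

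Pik3r1 (ENSMUSG00000041417) lies on chromosome 13 from 101680563 to 101768217 on the minus strand, a protein-coding gene that holds 2 short annotated records of the same name, Gm36638, on its own strand (2169 and 400 bases). Its level in neuroblast-like cells ran from 269 to 1116 CPM over the 10 mice, with a median of 774. Mouse 2 was again the lowest and mouse 7 the highest, followed by mouse 8 with 1086 CPM. In mouse 7, 1 cell held 128 Pik3r1 UMIs (22.3% of its UMIs of this gene), so that its place above mouse 8 rests on this cell. The mean was 784 ± 254 CPM (SD, n = 10), and 841 ± 189 (n = 9) without mouse 2.

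Ganglion-like cells had between 25.8 and 115 CPM of Pik3r1, with a median of 73.0, below each value of neuroblast-like cells. Unnamed cells came second with 622 ± 198 CPM (n = 10), overlapping neuroblast-like cells. Schwann-like cells followed with 184 ± 44.6 CPM (n = 9) and myofibroblast-like cells with 144 ± 84.2 (n = 7), which do not differ beyond their spread. Below them lay fibroblast-like cells with 95.6 ± 54.6 CPM (n = 5), endothelial-like cells with 76.7 ± 53.4 (n = 9) and ganglion-like cells with 68.0 ± 27.8 (n = 10), neighbours that also overlapped. Macrophage-like cells had the lowest mean with 35.1 ± 26.6 CPM (n = 9), and their values overlapped those of ganglion-like cells. NKT-like cells, for which no mean is given, had 0 Pik3r1 UMIs in 36 cells.

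Dek (ENSMUSG00000021377) lies on chromosome 13 from 47084775 to 47106201 on the minus strand and codes for protein. At its 3′ end, which is the end that these libraries read, 505 bases also lie in Kdm1b, a protein-coding gene on the opposite strand. In neuroblast-like cells, Dek had between 134 and 429 CPM over the 10 mice, with a median of 308. Mouse 2 was the lowest and mouse 6 the highest, and the mean was 310 ± 76.8 CPM (SD, n = 10), or 329 ± 48.6 (n = 9) without mouse 2.

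Dek was also found in other classes. Unnamed cells had 315 ± 94.9 CPM (n = 10), and myofibroblast-like cells 238 ± 147 (n = 7) with values from 45.6 to 489 that rest on 1 to 5 UMIs per mouse (21 UMIs in 123 cells with smaller samples included), neither of which differs from neuroblast-like cells beyond the spread. Endothelial-like cells had 101 ± 52.5 CPM (n = 9), fibroblast-like cells 84.2 ± 127 (n = 5) and Schwann-like cells 71.5 ± 20.2 (n = 9), which overlap. Ganglion-like cells had between 18.2 and 54.1 CPM with a mean of 31.7 ± 10.0 (n = 10), and macrophage-like cells 25.3 ± 26.1 (n = 9). These low classes do not differ from fibroblast-like cells beyond the spread, since the median of the latter was 0 CPM.

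**Figure D1:**
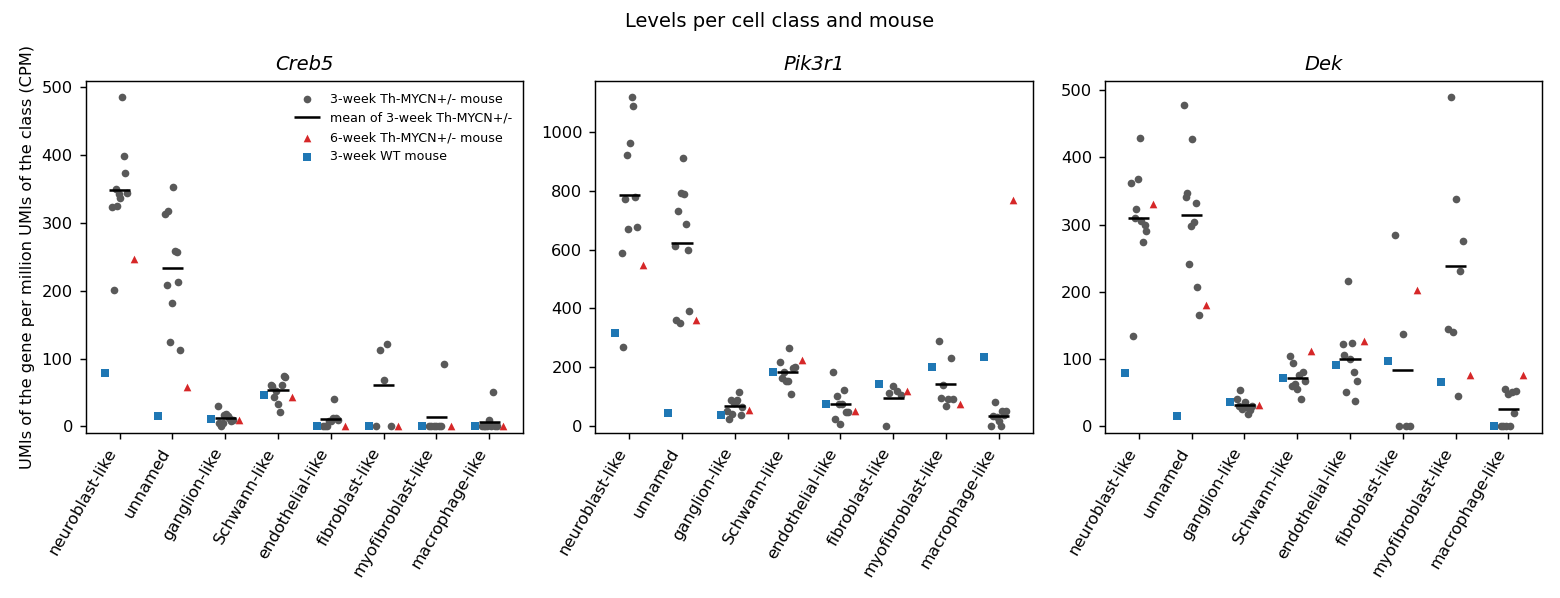
Levels of Creb5, Pik3r1 and Dek in CPM (vertical axes) for each cell class (horizontal axes), where each point is 1 mouse with at least 10 cells of the class and bars are means over 3-week Th-MYCN+/- mice. Creb5 had a mean of 348 CPM in neuroblast-like and 12.1 in ganglion-like cells, whereas Dek reached 489 CPM in myofibroblast-like cells of 1 mouse.

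Counted by molecules, neuroblast-like cells held 4529 of the 5165 Creb5 UMIs in cells of the 3-week Th-MYCN+/- mice, or 87.7%. They held 83.8% of the Pik3r1 UMIs and 78.9% of the Dek UMIs. Since these cells are rich in RNA, they held 48.4% of all UMIs. Cells thinned to 500 UMIs compare detection at equal depth. At this depth, a Creb5 UMI was found in 15.7% of neuroblast-like cells (exact Clopper-Pearson interval 14.3% to 17.1%), in 0.387% of ganglion-like cells (0.167% to 0.760%) and in 2.42% of Schwann-like cells. The shares for Pik3r1 were 31.8%, 2.42% and 8.76% in the same classes. For Dek they were 13.7%, 1.64% and 3.63%. These shares pool cells over mice. Mouse 2 gave 1511 of the 2515 ganglion-like cells before thinning, but 39 of the 2772 neuroblast-like cells, so that the ganglion-like shares rest largely on mouse 2. Its ganglion-like cells had 5.36 CPM of Creb5, 25.8 of Pik3r1 and 30.2 of Dek, beside means of 12.8, 72.7 and 31.9 without mouse 2. Before thinning, the median depth was 4322.5 UMIs in neuroblast-like, 1153 in ganglion-like and 984.5 in Schwann-like cells.

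RNA free in the suspension was measured in barcodes with at most 100 UMIs. It held a median of 91.3 CPM of Creb5, 323 of Pik3r1 and 149 of Dek over the 10 mice. The transgene, listed as H_MYCN, had 320 ± 166 CPM in neuroblast-like cells, 203 ± 83.9 in unnamed cells, 2.40 ± 3.00 in ganglion-like cells and 3.64 ± 6.22 (n = 9) in Schwann-like cells. In the 9 mice other than mouse 2, free RNA held 0.970 Creb5 UMIs for each H_MYCN UMI, neuroblast-like cells 1.04 and unnamed cells 1.18. For Pik3r1 these ratios were 2.82, 2.38 and 3.07, and for Dek 1.61, 0.949 and 1.61, in the same order. Schwann-like cells held 16.4 Creb5 UMIs for each H_MYCN UMI (131 and 8 UMIs), 55.8 of Pik3r1 and 22.4 of Dek. In ganglion-like cells, the same ratios were 4.31, 27.1 and 13.1, from 13 UMIs of H_MYCN. Endothelial-like cells, with 6 UMIs of H_MYCN, had ratios of 1.00, 6.17 and 11.5. If all H_MYCN in Schwann-like cells is taken as free RNA, which was not tested, free RNA makes up between 0% and 28.0% (mouse 3) of the UMIs of a cell, with a median of 0% over 9 mice. This estimate rests on 8 H_MYCN UMIs in all, so that a share of 0% means a count of 0 and does not show that free RNA was absent. With this share subtracted, neuroblast-like cells of the 9 mice other than mouse 2 had means of 381 CPM of Creb5, 867 of Pik3r1 and 340.2 of Dek. With no subtraction, the means of these 9 mice were 364, 841 and 329 CPM.

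Within each mouse, the level in neuroblast-like cells was divided by that in ganglion-like cells of the same library, with 1 CPM added to both. Pik3r1 was between 8.38 and 21.4 times as high, with a median of 10.7 and a mean log2 ratio of 3.54 ± 0.46 (SD, n = 10). Dek was between 4.34 times as high, in mouse 2, and 14.3 times, in mouse 8, with a mean log2 ratio of 3.25 ± 0.55. Creb5 had the widest range. In mouse 3 its count was 0 among the 110849 UMIs of ganglion-like cells, so that Creb5 was at least 12.9-fold higher there, and over the other 9 mice the ratio lay between 10.2 and 50.9 with a mean log2 ratio of 4.75 ± 0.72. Over 9169 genes, 11.6% had a mean log2 ratio of at least 1 and were higher in each of the 10 mice. All 3 genes were among them, which the choice of markers fixed, at ranks 227 (Pik3r1) and 291 (Dek) by mean log2 ratio, while the rank of Creb5 depends on the 1 CPM added in mouse 3.

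Relatives of the 3 genes were described in the same way, and a gene counts as higher or lower here when its mean log2 ratio was at least 1 in size with 1 sign in each of the 10 mice. Of 24 CREB and ATF genes and partners, 19 had enough UMIs to be measured. Jun, the AP-1 subunit with which CREB5 pairs, was the 1 higher gene, with 361 ± 92.4 CPM in neuroblast-like and 171 ± 98.4 in ganglion-like cells. Other classes had more Jun, with 1380 ± 285 CPM in Schwann-like and 811 ± 304 in endothelial-like cells (n = 9 for both). Atf7, the close relative of CREB5, was lower (3.76 ± 2.43 against 16.3 ± 9.12 CPM), as were Creb3l1, Creb3l2 and Crtc2. Atf2 (34.6 ± 16.1 against 26.7 ± 12.9), Creb1 (15.9 ± 7.41 against 16.2 ± 17.6) and Crem (16.9 ± 8.54 against 35.7 ± 28.4) overlapped. The median log2 ratio of the list was −0.68, against 0.0095 over the 9169 genes, of which 1064 were higher and 1353 lower.

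Of 8 other class I PI3K subunits, 3 were measured, 0 were higher and 0 lower, with a median log2 ratio of −0.77. The regulatory subunit Pik3r2 had 21.4 ± 8.90 CPM in neuroblast-like and 23.6 ± 7.59 in ganglion-like cells, and Pik3r3 had 3.62 ± 2.11 and 8.10 ± 3.33. Among the catalytic subunits, Pik3ca had 12.3 ± 6.17 and 18.6 ± 8.15 CPM, and Pik3cb 0.446 ± 0.509 and 1.22 ± 1.49. Pik3cd, the subunit known from leukocytes, had 3.01 ± 3.02 CPM in neuroblast-like and 25.1 ± 12.7 in ganglion-like cells. Of 35 PI3K inputs and outputs, 23 were measured. The kinase Akt2 and the ribosomal protein Rps6 were higher than in ganglion-like cells. The inhibitor Pik3ip1 (20.5 ± 12.1 against 120 ± 22.5 CPM) was among those lower, and the median log2 ratio was −0.26. Rps6 had 2990 ± 286 CPM in neuroblast-like cells, 4485 ± 774 in endothelial-like and 1182 ± 139 in Schwann-like cells. For Akt2 these values were 36.6 ± 12.3, 13.3 ± 15.3 and 59.4 ± 65.7 CPM.

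In the list around Dek, all 28 DEK partners, histone chaperones and chromatin proteins were measured, 17 were higher, beside 11.6% of all genes, 0 were lower, and the median log2 ratio was 1.55. By size, the first were the histone chaperones Asf1b (log2 ratio 4.77 ± 1.35), Chaf1a (3.34 ± 1.06) and Npm3 (2.91 ± 0.68), followed by Hmgb1, Cbx1 and Ssrp1. Npm1 had 1234 ± 157 CPM in neuroblast-like and 273 ± 54.4 in ganglion-like cells. Set, a histone chaperone that acts with DEK, had 879 ± 250 and 322 ± 171 CPM.

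Neuroblast-like cells were made of 3 clusters. In 3-week Th-MYCN+/- mice, the cluster led by mitotic genes such as Plk1, Aurkb and Top2a had 423 ± 109 CPM of Dek (n = 10). The cluster led by Igfbpl1, Agtr2 and Dlk1 had 165 ± 21.9 CPM (n = 9), and the one led by Cartpt 287 ± 100 (n = 9). Their ranges over mice, from 143 to 520, 129 to 189 and 143 to 460 CPM, overlapped. The overlap of the first 2 ranges rests on mouse 2 alone, the lowest of the first. It had under 10 cells in the cluster led by Igfbpl1 and did not enter that range. Creb5 had 335 ± 25.4, 388 ± 83.9 and 375 ± 149 CPM in the same order, and Pik3r1 698 ± 183, 925 ± 246 and 803 ± 305, with ranges that overlapped too. Pooled over mice, Dek had 444 CPM (428 to 460) in the cluster led by mitotic genes and 171 (160 to 183) in the one led by Igfbpl1. In the same order, these clusters had 331 (317 to 345) and 382 CPM (365 to 399) of Creb5, and 720 (700 to 740) and 922 CPM (896 to 949) of Pik3r1. These intervals pool mice and cover counting error alone, so that they do not show a difference beyond the spread between mice. These differences between clusters of the same mice were not tested. At a resolution of 1.0, an alternative, 459 cells led by Pnmt, Ppp1r17, Shox2, Lamb2 and Agtr2 met 8 of 14 neuroblast markers and were left unnamed because of their leading genes.

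The question whether the levels move with the cell cycle was tested on a split that used none of the 3 genes. Neuroblast-like cells with at least 1000 UMIs were thinned to 1000 UMIs and scored with 43 S phase and 54 G2M genes. A cell fell in the S or G2M range when that score was above 0 and the higher of both, and was low-cycle when neither was above 0. In the 3-week Th-MYCN+/- mice, 766 cells fell in the S range, 902 in the G2M range and 942 were low-cycle. A score within 0.05 of the limit was found for 98, 46 and 163 of these cells. The S phase genes had means of 8.62, 3.82 and 1.46 UMIs per cell in the same order and the G2M genes 8.70, 22.3 and 3.99, so that low-cycle cells still held such transcripts. Mouse 2 had 4 low-cycle cells, 4 in the S range and 0 in the G2M range, fewer than the 5 required, so that 9 mice were compared.

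Dek was higher in the S and G2M ranges than in low-cycle cells. Low-cycle cells had between 80.1 and 223 CPM of Dek, with a median of 117 and a mean of 128 ± 44.3 (SD, n = 9). Cells of the S range had between 333 and 530 CPM, with a median of 409 and a mean of 423 ± 65.8. Cells of the G2M range had between 347 and 558 CPM, with a median of 424 and a mean of 442 ± 72.2. The highest low-cycle value, that of mouse 6, lay below the lowest value of either other range. Dek rose by a log2 fold change of 1.78 from low-cycle to S range cells (edgeR, adjusted p = 1.56e-08, standard error 0.12), with a rise in 9 of 9 mice. From low-cycle to G2M range cells, its log2 fold change was 1.84 (edgeR, adjusted p = 3.37e-08, standard error 0.15), again with a rise in 9 of 9 mice. The ratio of the G2M range to the S range lay between 0.873 and 1.37 for Dek, with a median of 1.00, and this difference was not tested. Of the Dek UMIs in these cells, 38.0% lay in the S range and 49.1% in the G2M range. Low-cycle cells held 12.9% of them, but 34.0% of all UMIs.

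Creb5 and Pik3r1 gave no such difference. Creb5 had between 277 and 483 CPM in low-cycle cells (median 330), between 301 and 971 in the S range (median 343) and between 275 and 403 in the G2M range (median 347). The ranges overlapped, and mouse 7 gave the highest value in the S range, where 1 cell held 85 Creb5 UMIs. Its log2 fold change was 0.19 (standard error 0.15, adjusted p = 0.413, higher in 6 of 9 mice) in the S range and 0.047 (standard error 0.091, adjusted p = 0.757, higher in 5 of 9) in the G2M range. With such single high counts replaced, an alternative chosen after the data were seen, the S range value was 0.024. Pik3r1 had medians of 815 CPM in low-cycle cells, 762 in the S range and 761 in the G2M range, and the highest value was again in mouse 7 (1882 CPM, low-cycle), where 1 cell held 128 UMIs. Its log2 fold changes were −0.075 (standard error 0.13, adjusted p = 0.730, higher in 5 of 9 mice) and −0.025 (standard error 0.11, adjusted p = 0.901, higher in 3 of 9).

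**Figure D2:**
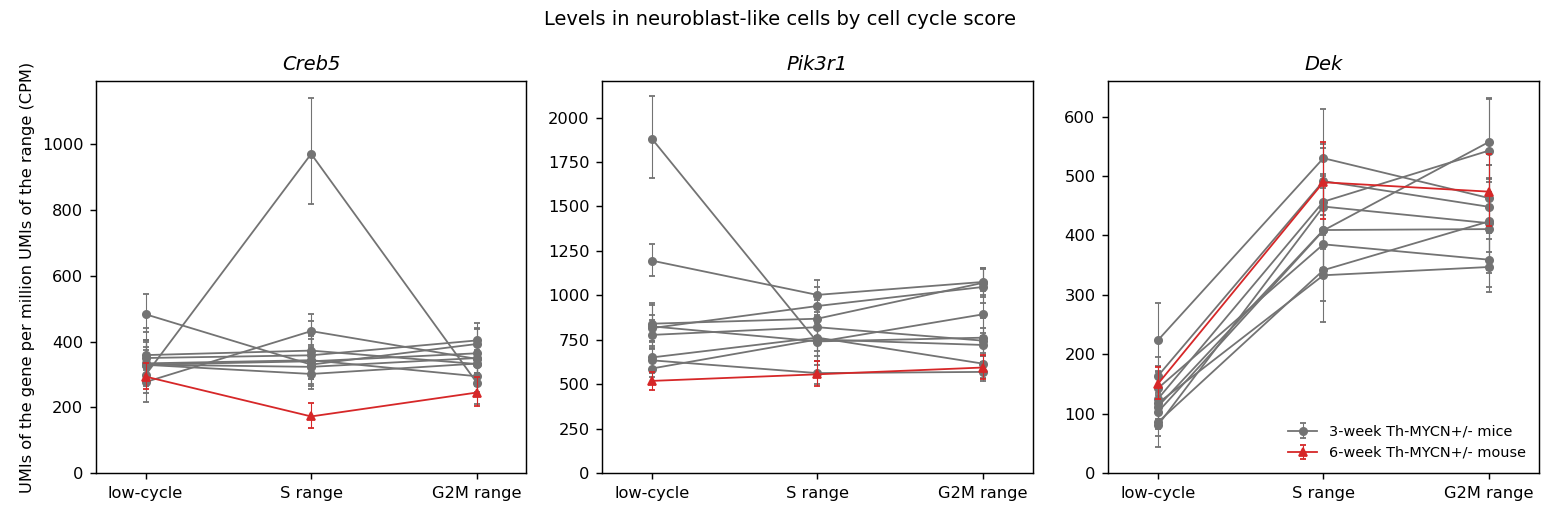
Levels of Creb5, Pik3r1 and Dek in CPM (vertical axes) in low-cycle, S range and G2M range neuroblast-like cells (horizontal axes), where each line is 1 mouse and bars are exact Poisson 95% intervals. Dek had a mean of 128 CPM in low-cycle cells, 423 in the S range and 442 in the G2M range, while the lines of Creb5 and Pik3r1 cross.

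In the S range, 1 of the 3 genes was called, beside 21.5% of the 6860 genes tested, 10.6% higher and 10.8% lower. In the G2M range, it was again 1 of the 3, beside 26.9% of 7724 genes, 12.2% higher and 14.7% lower. Other markers moved with the ranges. Thinned to 1000 UMIs, the 12 ganglion markers together had a median of 2 UMIs per low-cycle cell and 1 per cell of each other range, with none of the 12 at 0, and the 14 neuroblast markers had 18, 18.5 and 19. The most abundant ganglion marker was Prph in low-cycle cells (0.447 UMIs per cell) and Snap25 in the others. The 12 Schwann markers had a median of 0 UMIs per cell in the 3 ranges, with means of 0.243 in low-cycle cells, 0.0953 in the S range and 0.0998 in the G2M range. The part of ganglion or Schwann RNA in the fold change of Dek was not tested. Low-cycle cells still had more Dek than ganglion-like cells of the same mouse, with a mean log2 ratio of 1.96 ± 0.56 (between 1.03 and 2.62, n = 9), and the same ratio was 3.61 ± 0.54 for Pik3r1. For Creb5 it was at least 3.38 in each of the 9 mice, with no mean given because mouse 3 had 0 Creb5 UMIs in ganglion-like cells.

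Of the 28 genes of the list around Dek, 14 rose and 0 fell in the S range, with a median log2 fold change of 0.38 against −0.027 over all genes tested. In the G2M range 13 rose and 1 fell, with a median of 0.37 against −0.041. Asf1b, which hands histones to the replication fork, rose by 2.63 in the S range and 2.40 in the G2M range on the log2 scale, each in 9 of 9 mice. Chaf1a, a subunit of the chromatin assembly factor, rose by 2.09 and 1.22. Hmgb1 rose by 0.75 and 0.94, and the acidic chaperone Anp32b by 0.90 and 1.00. Hmgb3 rose by 0.44 and 0.86. Daxx (0.92), Supt16 (0.63) and Npm1 (0.41) are among those called in the S range, Cbx1 (0.56) among those called in the G2M range, where Spop, a ubiquitin ligase adaptor, fell (−0.32). Whether the ranges differ in these genes was not tested. Set rose by 0.39 and 0.31.

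In the lists around Creb5 and Pik3r1, calls are to be read beside the 21.5% (S range) and 26.9% (G2M range) of all genes tested. Of 11 CREB and ATF genes tested in the S range, Atf1 rose (0.73) and Junb fell (−0.87), and the median was −0.24. Of 13 tested in the G2M range, Atf1 rose (0.81), Junb (−0.97) and Atf5 (−0.52) fell, and the median was −0.023. Atf2 had log2 fold changes of −0.31 and 0.12 and Crem of −0.33 and −0.096, none past the threshold. Pik3r2 was the PI3K subunit tested in both ranges, with −0.26 and −0.49 on the log2 scale (edgeR, adjusted p = 0.484 and 0.125). Pik3ca was tested in the G2M range, where the median of these 2 subunits was −0.12 and 0 were called. Of 17 PI3K inputs and outputs tested in the S range, Tsc2 rose (1.03) and Pik3ip1 fell (−1.82). In the G2M range, Pik3ip1 (−1.68) and Eif4ebp1 (−0.52) fell among 19 tested.

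The transgene was asked for next. Neuroblast-like cells thinned to 1000 UMIs were split into 696 cells with a UMI of H_MYCN and 1914 without, in the same 9 mice plus 8 cells of mouse 2 that were too few to enter. None of the 3 genes was called. Creb5 had 418 ± 58.8 CPM in cells with and 405 ± 33.1 in cells without such a UMI (log2 fold change 0.079, standard error 0.13, adjusted p = 0.991, higher in 6 of 9 mice). Pik3r1 had 1030.3 ± 295 and 941 ± 185 CPM (0.17, standard error 0.091, adjusted p = 0.928, higher in 5 of 9). Dek had 352 ± 151 and 362 ± 63.5 CPM (−0.041, standard error 0.15, adjusted p = 0.998, higher in 5 of 9). Of 3468 genes tested, edgeR called 0.115%, or 4, which were Apoe, Hbb-bs, Prph and Vip, all lower in cells with the UMI. Markers of other classes were lower in these cells too, with means of 1.46 against 1.93 UMIs per cell for ganglion markers and 0.0833 against 0.175 for Schwann markers. At an unadjusted p under 0.05 there were 180 genes, and DESeq2 called 0. A cell without a UMI of H_MYCN at this depth can still express it. Before thinning, 62.0% of all neuroblast-like cells of the 3-week Th-MYCN+/- mice held such a UMI. The split thus depends in part on which UMIs were drawn, and it cannot show that the levels are unrelated to the transgene.

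Across mice, 6 relations were computed on log2(CPM + 1) in neuroblast-like cells of the 10 mice, with two-sided permutation tests and Benjamini-Hochberg adjustment over the 6. Pik3r1 and H_MYCN had a Pearson r of 0.85 (p = 0.00353, adjusted 0.0106) and a Spearman rho of 0.75 (p = 0.0173, adjusted 0.0811). Creb5 and Pik3r1 had an r of 0.90 (p = 0.00209, adjusted 0.0106) and a rho of 0.71 (p = 0.0270, adjusted 0.0811). Mouse 2 was lowest for each gene, and without it r was 0.63 for Pik3r1 and H_MYCN and 0.65 for Creb5 and Pik3r1 (adjusted permutation p = 0.191 for both, n = 9). The values of mouse 2 come from 39 cells with 29791 UMIs, so that each rests on few UMIs of the gene. Free RNA of its library held 56.1 CPM of Creb5, 202 of Pik3r1, 151 of Dek and 18.4 of H_MYCN. Cells held 38.8% of the UMIs of that library, against 74.1% to 87.1% in the other 9. The part of free RNA in these relations was not tested. From cells thinned to 1000 UMIs, of which mouse 2 had 8, Creb5 and Pik3r1 kept an r of 0.87 (adjusted permutation p = 0.0141, n = 10), while Pik3r1 and H_MYCN had 0.68 (adjusted 0.0501). In a further look, the 2 mice farthest from the median of the first gene of a relation were left out, which are mice 2 and 10 for H_MYCN and mice 2 and 7 for Creb5 and for Pik3r1. There r was 0.62 for H_MYCN and Pik3r1 (exact p = 0.103, n = 8) and 0.49 for Creb5 and Pik3r1 (exact p = 0.227, n = 8).

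From all cells, the other relations did not pass the threshold after adjustment, but Creb5 and Dek did with the opposite sign when cells were thinned to 1000 UMIs (r = −0.78, adjusted permutation p = 0.0141, n = 10). Creb5 and H_MYCN had an r of 0.63 (p = 0.0660, adjusted 0.0858) and a rho of 0.33 (p = 0.347), and Dek and H_MYCN an r of 0.68 (p = 0.0462, adjusted 0.0858) and a rho of 0.26 (p = 0.470). Without mouse 2 these values of r were 0.053 and 0.071 (n = 9), and without mice 2 and 10 they were −0.088 and −0.26 (n = 8). Creb5 and Dek had an r of 0.65 (p = 0.109, adjusted 0.109) and a rho of −0.24 (p = 0.512), and Pik3r1 and Dek an r of 0.73 (p = 0.0715, adjusted 0.0858) and a rho of 0.055 (p = 0.890). Without mouse 2 their r was −0.47 and −0.22 (n = 9), and without mice 2 and 7 it was −0.63 and −0.16 (n = 8). The labels give no batch, so that no relation could be recomputed within one.

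**Figure D3:**
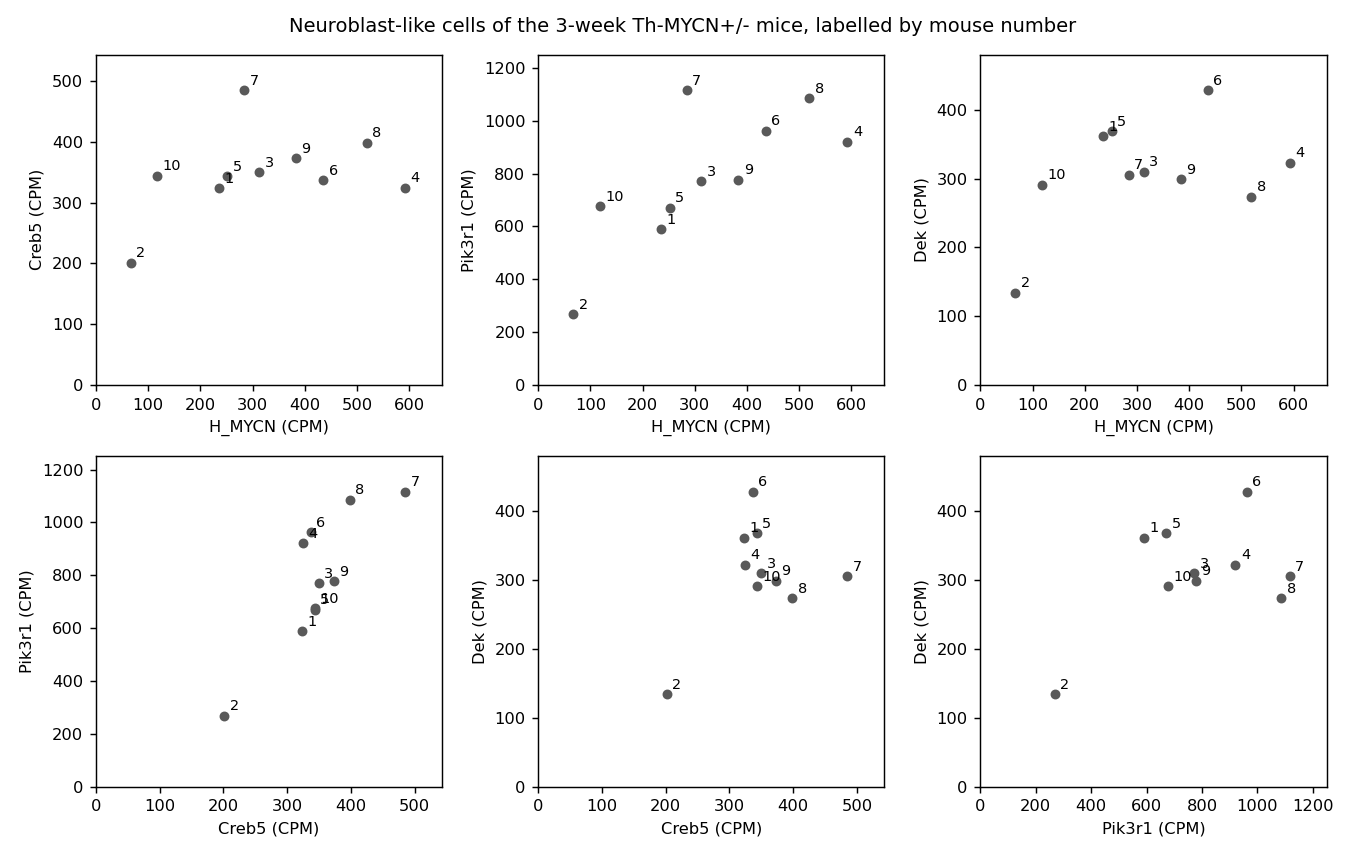
Levels in CPM of neuroblast-like cells, 1 point for each of the 10 3-week Th-MYCN+/- mice, for H_MYCN and each gene (upper row) and for the genes with each other (lower row), on linear axes. Mouse 2 is the lowest in each panel, at 67.1 CPM of H_MYCN and 201, 269 and 134 CPM of Creb5, Pik3r1 and Dek. These values come from 39 cells with 29791 UMIs.

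At 6 weeks, in the mouse with a macroscopic tumor, the levels in neuroblast-like cells lay within the range of the 3-week mice. Creb5 had 247 CPM (225 to 271) and Pik3r1 549 CPM (515 to 585), each above 1 of the 10 mice. Dek had 331 CPM (305 to 359), above 7 of the 10, and H_MYCN 456, above 8. Without mouse 2, the lowest 3-week values of Creb5 (324) and Pik3r1 (589) lay above those of the 6-week mouse. For comparison, 12.5% of 3277 genes of this class fell outside the range of the 10 mice. In ganglion-like cells, the 6-week mouse had 9.46, 54.1 and 32.4 CPM of Creb5, Pik3r1 and Dek, within range, where 8.16% of genes fell outside. In Schwann-like cells, Dek had 112 CPM (84.4 to 146), just above the highest 3-week value of 105, where 13.6% of genes fell outside, and 1 cell held 18 of its 55 UMIs. By cycle range, Dek was again lowest in low-cycle cells, with 150 CPM in 107 low-cycle cells, 490 in 64 cells of the S range and 474 in 73 cells of the G2M range. Creb5 had 293 CPM (257 to 333) in low-cycle cells, 172 (136 to 214) in the S range and 245 (204 to 291) in the G2M range. Its S range value lay below the lowest 3-week value of 301, and its interval did not overlap that of low-cycle cells, which was also so in the 3-week mice 7, 8 and 10, of which mouse 8 was lower in the S range and mice 7 and 10 higher. Pik3r1 had 518, 555 and 593 CPM in the same order. For Creb5, single neuroblast-like cells of the 6-week mouse held 31 and 26 UMIs, or 7.03% and 5.90% of those of the class. Such cells also occurred in the 3-week mice 7 (85 UMIs), 8 (40 and 20) and 10 (50). The intervals cover counting error alone, and the part of these cells in the Creb5 differences between ranges was not tested.

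In the WT mouse, which has no transgene, the 34 neuroblast-like cells held 1 UMI of Creb5, 4 of Pik3r1 and 1 of Dek. These counts give 79.1 CPM (2.00 to 441), 317 CPM (86.2 to 810) and 79.1 CPM, so that Creb5 and Dek lay below the 3-week Th-MYCN+/- range while their intervals reached into it. At this depth 79.3% of genes fell outside that range, and no difference was detectable. In WT ganglion-like cells, Creb5 had 10.9 CPM, Pik3r1 39.8 and Dek 36.2, and 0 of the 3 genes fell outside the range of the Th-MYCN+/- mice, beside 19.3% of genes. In WT Schwann-like cells, they had 46.8, 183 and 72.3 CPM, again within range, where 23.6% of genes fell outside.

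Genes with a pattern most like each member were ranked by Pearson r of log2(CPM + 10) over 42 sums per mouse and named class, among 5966 genes. The sums share libraries and depth, so that r is a description. Closest to Creb5 were Nfe2l3 (0.95), Egln3 (0.92), Prim1 (0.92), Sfpq (0.91) and Bdnf (0.90). Nfe2l3, a basic leucine zipper factor, had 227 CPM in neuroblast-like and 3.72 in ganglion-like cells. Closest to Pik3r1 were Nfe2l3 (0.91), Ung (0.90), Hnrnpdl (0.88), Egln3 (0.87) and Rrm2 (0.87). Closest to Dek were Hmgb1 (0.88), Hmgn2 (0.88), Hmgb2 (0.84), Hnrnpa1 (0.84) and Impdh2 (0.83), of which the first 3 code for high mobility group proteins. Among the members, r was 0.89 for Creb5 with Pik3r1, 0.77 for Creb5 with Dek and 0.77 for Pik3r1 with Dek.

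Since the 3 genes share their highest or near-highest class, their promoter windows were searched for 5 motifs on both strands: CACGTG (E-box), TGACGTCA (full CRE), TGAGTCA (AP-1), TTTCGCGC (E2F-like) and CCAAT (NF-Y-like). RefSeq (GRCm38.p6) gave 5 windows for the 3 genes among 32851, each from 250 bases before to 50 after a transcript start. The upstream Creb5 window held an E-box, found in 7.15% of all windows, and a full CRE, found in 1.79%, which share 2 bases. A second Creb5 window (chr6:53573124-53573423) held an AP-1 motif (5.20% of windows). CCAAT, found in 37.4%, was in the Dek window and in 1 of 2 Pik3r1 windows, and the E2F-like motif, found in 0.323%, was in none of the 5. A match describes letters and no binding was measured. The 3 windows printed are those of the first start of each gene, on the gene's strand from 5′ to 3′, with the matches in capitals, where ATTGG is CCAAT on the other strand. They lie at chr6:53287053-53287352 (plus), chr13:101768168-101768467 (minus) and chr13:47106172-47106471 (minus).
Creb5: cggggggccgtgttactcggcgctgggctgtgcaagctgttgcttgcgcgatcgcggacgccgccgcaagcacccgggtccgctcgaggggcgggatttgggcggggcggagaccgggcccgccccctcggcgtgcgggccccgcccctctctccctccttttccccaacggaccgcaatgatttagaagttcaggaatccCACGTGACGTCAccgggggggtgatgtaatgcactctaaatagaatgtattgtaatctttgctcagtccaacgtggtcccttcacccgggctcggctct
Pik3r1: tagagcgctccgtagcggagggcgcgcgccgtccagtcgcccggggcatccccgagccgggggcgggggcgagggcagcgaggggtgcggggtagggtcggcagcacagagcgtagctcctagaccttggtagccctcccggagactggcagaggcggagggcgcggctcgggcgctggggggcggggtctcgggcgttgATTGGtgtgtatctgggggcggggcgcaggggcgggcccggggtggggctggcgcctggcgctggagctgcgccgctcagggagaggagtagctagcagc
Dek: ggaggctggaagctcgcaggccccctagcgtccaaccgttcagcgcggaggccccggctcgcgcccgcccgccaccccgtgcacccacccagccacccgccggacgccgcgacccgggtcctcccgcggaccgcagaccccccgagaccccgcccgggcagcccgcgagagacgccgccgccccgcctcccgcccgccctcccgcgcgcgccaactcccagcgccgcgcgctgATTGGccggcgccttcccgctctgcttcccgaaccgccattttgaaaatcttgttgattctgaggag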

How the data were processed

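The 12 samples are 1 WT, 10 3-week Th-MYCN+/- and 1 6-week Th-MYCN+/- mouse, and each library is 1 mouse. The deposited values are raw UMI counts per feature and barcode, which the authors made with Cell Ranger on mm10 extended by the human MYCN transgene, without selection of cells or normalization. Which annotation release they used is not stated. Positions of the 3 genes come from GENCODE for GRCm38, looked up by identifier.

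Cells were called with EmptyDrops written in Python 3.11.15 (numpy 2.4.6, scipy 1.17.1, pandas 2.3.3), with barcodes of at most 100 UMIs as empty, 10000 draws and an FDR of 0.01. It was tested on simulated data. Of 16192 barcodes called, 4052 had under 200 genes, 224 over 10% mitochondrial UMIs and 0 over 60% ribosomal UMIs. Clustering used SCTransform (sctransform 0.4.2) and Seurat 5.3.0 in R 4.3.3, with 2000 variable genes, 30 components and a resolution of 0.5. A cluster was named when at least 50% of a marker list and at least 3 markers were 1.5 times as high as in other cells and found in 10% of its cells. Leading genes of a cluster had to be found in 25% of its cells, a limit set after the clusters were seen. Plots used matplotlib 3.10.9.

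Counts were summed per mouse and range where both ranges had at least 5 cells. The tests were quasi-likelihood F tests in edgeR 4.0.16 on genes kept by filterByExpr, after TMM scaling, with the mouse as a replicate block and a threshold of 0.05 on adjusted p. CPM of the transgene split are on this scale, and the others are plain. The block rests on both sums coming from 1 library. The pairing was checked by correlating deviations from the range means, and was positive in 9 of 9 pairs of each comparison (0.0679 to 0.378 for S, 0.0370 to 0.346 for G2M, 0.0458 to 0.413 for the transgene). The test was tested on simulated data. DESeq2 1.42.0 was an alternative.

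The members and lists were chosen with earlier results of these data known. The genes named are the members, the 5 genes most like each (at least 50 CPM in 5 sums, at least 20 cells per sum), at most 6 list genes per direction past the threshold or, between classes, with a mean log2 ratio of at least 1 in size and 1 sign in each mouse, and some fixed relatives. Apoe, Hbb-bs, Prph and Vip, called in the transgene split, and the genes that lead clusters were named after their values were seen. Alternatives were other cell calling, filters, clustering, resolutions, thinning, free RNA, pseudocount, tool, block, score limit and least number of cells, and mouse 2 left out. Imaging and human data of the study were not used.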

Additional observations from a re-analysis of the deposited data

Results flagged for a closer look

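Of 36 groups of 5 to 10 mice, 10 had a highest or lowest mouse set far apart from the others of its group, measured by the gap to its neighbour over the whole range. Chance alone picks out about 1 in 20 groups of continuous, independent values, whereas these groups share mice and some hold mostly counts of 0. In neuroblast-like cells, Dek was far lowest in mouse 2 (134 CPM), which had 39 such cells. Creb5 was far highest in low-cycle cells of mouse 8 (483 CPM) and in S range cells of mouse 7 (971 CPM). In the latter, 1 cell held 85 of the 145 UMIs. In mouse 8, single neuroblast-like cells held 40 and 20 Creb5 UMIs, and their cycle range is not given here. Pik3r1 was far highest in low-cycle cells of mouse 7 (1882 CPM), where 1 cell held 128 of 265 UMIs.

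The log2 ratio of Creb5 between neuroblast-like and ganglion-like cells was far highest in mouse 3 (8.45), which had 0 Creb5 UMIs in ganglion-like cells, so that this value depends on the 1 CPM added. Other cases lie in classes with few UMIs. Creb5 was far highest in endothelial-like cells of mouse 7 (40.8 CPM), macrophage-like cells of mouse 8 (51.3 CPM) and myofibroblast-like cells of mouse 9 (91.7 CPM), each from 1 UMI. Pik3r1 was far lowest in fibroblast-like cells of mouse 1 (0 CPM among 7033 UMIs). Dek was far highest in endothelial-like cells of mouse 4 (215 CPM), where 1 cell held 21 of its 29 UMIs. Their causes were not tested.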

How the results depend on the processing

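Dek kept its call and direction in each of 9 alternatives for the S range (log2 fold change 1.56 to 1.94) and 9 for the G2M range (1.48 to 1.86). Creb5 and Pik3r1 were not called in either range under any of them. The levels in neuroblast-like cells ran from 331 to 381 CPM (Creb5), 755 to 867 (Pik3r1) and 299 to 345 (Dek) over 10 alternatives. Leaving out mouse 2 changes nothing between ranges, since it had too few cells to enter. Asking for at least 10 cells per sum changes nothing there either, since each sum compared already held as many.

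Some values changed sign. Creb5 in the G2M range turned to −0.0081 when thinned to 500 UMIs and −0.016 with single high counts replaced, an alternative chosen after the data were seen, and Pik3r1 to 0.072 with the latter. Between cells with and without a UMI of H_MYCN, Creb5 and Pik3r1 turned to −0.093 and −0.021 without the filter on low counts, and to −0.12 and −0.13 when thinned to 500 UMIs. Without mouse 2, Dek turned to an r of −0.47 with Creb5 and −0.22 with Pik3r1. From cells thinned to 1000 UMIs, r was −0.78 (adjusted p = 0.0141), past the threshold, and −0.50 for these pairs, and −0.15 for Dek with H_MYCN.

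Pik3r1 with H_MYCN was no longer past the threshold without mouse 2 (0.63) or when thinned (0.68), nor was Creb5 with Pik3r1 without mouse 2 (0.65). With single high counts replaced, H_MYCN passed it with Creb5 (0.76) and Dek (0.72). The log2 ratio of Pik3r1 moved to 4.51 ± 2.08 with free RNA subtracted (n = 9, without mouse 2), and that of Dek to 6.10 ± 3.09 as a mean over cells thinned to 500 UMIs. The SD of the latter is wide beside 0.55 in the counts of all UMIs, and with few UMIs the 1 CPM added weighs more. Genes called in the S range fell to 830 without the block and 395 from thinned sums, and in the G2M range to 1237 and 554, where fewer genes were tested. For H_MYCN they were 0 with DESeq2, 0 without the block, 2 when thinned to 500 UMIs, 23 from raw sums and 40 without the filter. The causes were not tested.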

Other observations

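Single cells with a count far above their class were found for each of the 3 genes. Such a count was set at 10 UMIs or more and at least 10 times the count that the class and depth give, after the data were seen. Among neuroblast-like cells, Creb5 had 8 such cells, with 20 to 85 UMIs, in 6 mice. Pik3r1 had 2, with 128 and 61 UMIs, and Dek 2, with 40 and 16. The pattern was common: of 1786 genes with at least 100 CPM in these cells, 1637 (91.7%) had at least 1 such cell. The highest share was that of Dek in an NKT-like cell of the WT mouse, with 84 of 941 UMIs (8.93%). At 6 weeks, 1 macrophage-like cell held 29 Pik3r1 UMIs, 96.7% of those of its class, and 1 ganglion-like cell held 26, or 32.5%.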
